A study of Mus musculus with 9 samples.

Results

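The nuclear-encoded respiratory chain genes were taken from the retina data by name, as every Gene ID that begins with Nduf, Uqcr, Cox4 to Cox8 or Atp5, or that is Sdha, Sdhb, Sdhc or Sdhd, leaving out names that end in -ps. This rule gave 96 of 25239 gene names and used no measured value. They comprise 46 genes of complex I, 4 of complex II, 8 of complex III, 21 of complex IV and 17 of ATP synthase. Whole retinas of C57BL/6J mice at postnatal day 42 were profiled by bulk RNA-Seq, with a pair of retinas from 1 mouse in each library and 3 libraries for each of 3 genotypes. The control mice were +/+, and the others carried the *Rbpms*-CreERT2 allele on 1 chromosome (Cre/+) or on both (Cre/Cre). This allele holds a tamoxifen-inducible Cre recombinase, joined by a P2A peptide to the C-terminus of RBPMS at its own locus, so Cre is driven by the *Rbpms* promoter, which is active in retinal ganglion cells. The knock-in mice descend from a founder made by genome editing, no tamoxifen is stated for the mice that were sequenced, and the litters are said to be shared among genotypes without saying which mice share one. The question was whether carrying the allele alters the transcriptome of the retina.

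The respiratory chain passes electrons from NADH through complex I, or from succinate through complex II, to ubiquinone, complex III, cytochrome c and complex IV, where oxygen is reduced. Complexes I, III and IV pump protons across the inner mitochondrial membrane, and ATP synthase uses the gradient to make ATP. A few subunits are encoded by mitochondrial DNA, and the rest, described here, by nuclear genes. The retina is known for a high use of energy, with mitochondria crowded in the inner segments of photoreceptors.

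Many nuclear respiratory chain genes are known to share binding sites for NRF1, YY1 and the ETS factor GABP near their starts. Promoters were read from RefSeq on GRCm38.p6, from 250 bases before to 50 bases after each annotated start, and 76 of the 96 genes had an entry. The palindromic NRF1 motif, searched on both strands as were the others, occurred in 19 of the 76, or 25.0%, against 5.19% of all 27025 genes with an entry and 10.7% of those expressed here. YY1's letters AAGATGGC occurred in 11, or 14.5%, against 3.19% of all genes and 4.76% of the expressed. The ETS letters CCGGAAG occurred in 25.0%, against 9.93% of all and 18.4% of the expressed. The GC box GGGCGG was in 46.1%, against 38.2% of all and 66.8% of the expressed. CCAAT was in 44.7%, against 41.1% and 42.7%, and TATAAA in 10.5%, against 15.7% and 9.01%. The 76 include genes not expressed here. Of the 74 that were, 25.7% held the NRF1 motif, 14.9% YY1 and 25.7% ETS. The GC box was in 45.9% of the 74, CCAAT in 44.6% and TATAAA in 8.11%, the last below the 9.01% of the expressed. These are matches of letters, not measured binding. To show them, the 120 bases before the start follow for the 4 genes of highest level with an NRF1 match in that stretch, which span complex II, ATP synthase and complex IV. *Sdha* lies on the minus strand at chr13:74350241-74350360, *Atp5c1* (at the second of its listed starts) at chr2:10080433-10080552, *Atp5k* at chr5:108434400-108434519 and *Cox6a1* at chr5:115348959-115349078, the last 3 also on the minus strand. Capitals mark any match to the 6 motifs.
Sdha: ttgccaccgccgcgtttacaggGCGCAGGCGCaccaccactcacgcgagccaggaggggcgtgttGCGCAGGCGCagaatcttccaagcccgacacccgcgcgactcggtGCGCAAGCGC
Atp5c1: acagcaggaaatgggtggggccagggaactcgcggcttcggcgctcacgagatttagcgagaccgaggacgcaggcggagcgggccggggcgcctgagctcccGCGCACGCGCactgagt
Atp5k: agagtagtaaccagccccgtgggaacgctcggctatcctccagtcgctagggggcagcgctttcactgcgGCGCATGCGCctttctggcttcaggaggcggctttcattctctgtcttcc
Cox6a1: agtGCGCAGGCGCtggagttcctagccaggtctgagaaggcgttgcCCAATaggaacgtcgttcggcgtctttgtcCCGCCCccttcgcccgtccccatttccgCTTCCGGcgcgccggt
*Sdha* held 3 NRF1 matches in this stretch and the other 3 genes 1 each, and *Cox6a1* also held CCAAT, GC box and ETS matches, none of which overlapped another. The same stretch is given for 2 pairs of complex IV genes in which 1 isoform is ubiquitous and the other is known from testis or striated muscle, with means of 374 against 25.2 TPM for *Cox6b1* and *Cox6b2* and 186 against 8.19 TPM for *Cox7a2* and *Cox7a1*. *Cox6b1* is at chr7:30626115-30626234 and *Cox6b2* at chr7:4753095-4753214, both on the minus strand. *Cox7a2* is at chr9:79759854-79759973 on the minus strand and *Cox7a1* at chr7:30184051-30184170 on the plus strand.
Cox6b1: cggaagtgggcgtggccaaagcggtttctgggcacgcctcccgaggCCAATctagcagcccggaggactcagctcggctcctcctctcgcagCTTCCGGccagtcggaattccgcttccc
Cox6b2: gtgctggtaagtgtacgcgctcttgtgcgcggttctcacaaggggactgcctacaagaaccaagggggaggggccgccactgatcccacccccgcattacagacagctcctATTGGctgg
Cox7a2: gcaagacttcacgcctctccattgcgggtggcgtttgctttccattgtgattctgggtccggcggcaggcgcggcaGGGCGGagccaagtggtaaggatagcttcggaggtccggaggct
Cox7a1: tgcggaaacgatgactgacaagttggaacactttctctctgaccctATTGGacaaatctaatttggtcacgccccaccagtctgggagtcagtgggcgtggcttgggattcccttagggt
*Cox6b1* held CCAAT and ETS matches, *Cox6b2* and *Cox7a1* a CCAAT match each, and *Cox7a2* a GC box.

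The deposited values are TPM, a transcript abundance corrected for gene length and scaled to the same sum in each library, so that levels may be compared between genes. The 9 libraries held 4.05 to 4.65 gigabases of aligned sequence, computed from the tables. Markers of rods, cones, bipolar, amacrine, horizontal, ganglion and Müller cells were all present. *Rbpms* itself stood at 38.4 to 43.4 TPM in +/+, 31.3 to 33.1 in Cre/+ and 19.1 to 24.2 in Cre/Cre. Several libraries stood apart. The ribosomal RNA precursor Rn45s took 9.21% of the TPM of Cre/Cre replicate 1 and at most 0.336% elsewhere, which lowers the TPM of every other gene there. *Xist*, transcribed from the inactive X chromosome, was above 100 TPM in 3 of 3 +/+, 2 of 3 Cre/+ and 1 of 3 Cre/Cre libraries, while the remaining 3 libraries had no more than 3.16 TPM, so libraries with and without *Xist* were not balanced among the genotypes. Summed lens crystallins and lens membrane genes were highest in Cre/Cre replicate 2, at 1112 TPM, and lowest in Cre/+ replicate 2, at 16.1 TPM. In bulk retina, fewer cells of a type and less RNA per cell cannot be told apart.

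Together the 96 genes took 1.72% to 2.07% of the TPM of a library. Of these genes, 68 had a mean of at least 100 TPM over the 9 libraries, a level that 2091 of the 25239 gene names reached, and 7 had at least 500 TPM. The highest was *Atp5b*, the catalytic beta subunit of ATP synthase, at rank 39 of all genes. A mean of at least 1 TPM, the limit for testing, was reached by 91 genes. The 5 below it were the muscle isoforms *Cox6a2* and *Cox8b*, the testis isoforms *Cox7b2* and *Cox8c*, and *Ndufa11b*, a paralog of *Ndufa11*. *Cox8c* was listed at 0 in all 9 libraries.

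**Figure D1:**
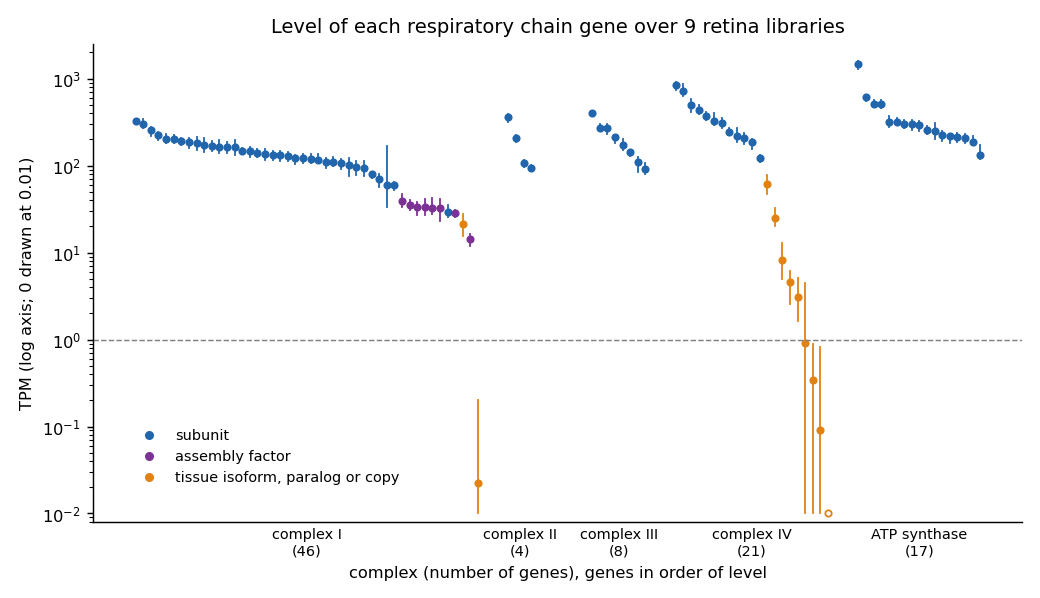
Mean TPM over the 9 retina libraries (points, log axis) of the 96 respiratory chain genes, with the lowest and highest library (lines), in order of level within each complex; colours mark subunits, assembly factors, and tissue isoforms, paralogs or copies. The dashed line is the limit of 1 TPM for testing, which 91 genes passed; subunits lay above it throughout, from *Ndufa11* at 29.6 TPM to *Atp5b* at 1482 TPM.

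In complex I, the 7 core subunits hold the flavin and the iron-sulfur clusters. *Ndufs7*, which holds the last iron-sulfur cluster before ubiquinone, was the lowest, at 125, 125 and 132 TPM in +/+, 131, 114 and 106 in Cre/+ and 122, 133 and 116 in Cre/Cre. The genotypes overlapped. *Ndufv1*, which takes electrons from NADH, stood at a 9-library mean of 227 TPM, *Ndufs8* at 149, *Ndufs3* at 148, *Ndufv2* at 131 and *Ndufs1* at 128 TPM. *Ino80dos*, on the opposite strand with a mean of 20.6 TPM, covers 44.2% of the span of *Ndufs1*. The strand setting of the counting is not given in the sources used here, so the reads of *Ndufs1* are uncertain. Each core subunit is present once in the complex. The coefficient of variation of the core subunits (CV, SD over mean across the 9 libraries) had a median of 7.54%. For all 2091 genes with a mean of at least 100 TPM the median was 7.37%. The 29 accessory subunits, which surround and stabilize the core, spanned 10.2-fold, from *Ndufa11* at 29.6 TPM to *Ndufb8* at 303 TPM, with a median of 134 TPM. The 8 assembly factors *Ndufaf1* to *Ndufaf8*, which build the complex but are not part of it, lay lower, from 14.4 TPM for *Ndufaf6* to 39.5 TPM for *Ndufaf3*. Their median CV was 12.2%.

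Complex II, succinate dehydrogenase, also belongs to the citric acid cycle and has no mitochondrially encoded subunit. *Sdha*, the flavoprotein that oxidizes succinate, was at 367, 376 and 354 TPM in +/+, 377, 351 and 381 in Cre/+ and 319, 389 and 375 in Cre/Cre. *Sdhb*, the iron-sulfur subunit, had a mean of 107 TPM, and the membrane anchors *Sdhc* and *Sdhd* 209.9 and 94.5 TPM. With a median CV of 5.73%, these 4 genes varied less than the median of all genes tested, 10.01%. In complex III, *Uqcrh*, the hinge protein, was the highest at 405 TPM and *Uqcrq* the lowest at 91.2 TPM. The core proteins *Uqcrc1* and *Uqcrc2* had means of 273 and 211 TPM and *Uqcrfs1*, the Rieske iron-sulfur protein that hands electrons to cytochrome c1, 142.5 TPM.

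Complex IV was led by *Ndufa4*, once counted as a subunit of complex I, at 815, 921 and 880.0 TPM in +/+, 875, 887 and 818 in Cre/+ and 732, 892 and 744 in Cre/Cre. *Cox4i1*, the ubiquitous form of subunit 4, followed with a mean of 726 TPM. The lowest of the 11 ubiquitous subunits, *Cox7b*, had 123 TPM. Where a subunit has a tissue isoform, the ubiquitous gene held most of the TPM in every library. *Cox4i1* held 90.5% to 93.7% of the *Cox4i1* and *Cox4i2* sum, *Cox6b1* 92.1% to 94.9% of its pair, *Cox7a2* 93.5% to 97.4%, and *Ndufa4* 99.3% to 99.6% against *Ndufa4l2*. *Cox6a1*, *Cox7b* and *Cox8a* each held at least 99.0% of their families. The second isoforms were therefore low but not all absent. *Cox4i2*, known from lung and from pericytes, was at 59.1, 78.3 and 60.0 TPM in +/+, 60.8, 47.1 and 59.6 in Cre/+ and 64.6, 61.4 and 66.1 in Cre/Cre. *Bcl2l1*, on the opposite strand, covers 58.0% of its span, and the strand setting of the counting is not given in the sources used here, so its reads are uncertain. *Cox6b2*, known from testis, ranged from 20.3 to 32.5 TPM and *Cox7a1*, of striated muscle, from 4.97 to 12.7 TPM. Beside them, 4 of the 7 striated muscle markers passed the TPM limit, *Mylpf* at 6.59 to 14.4 TPM, *Actc1* at 2.30 to 6.59, *Ckm* at 2.71 to 5.12 and *Acta1* at 1.64 to 3.34 TPM, and the other 3, *Tnni2*, *Tnnt3* and *Myh4*, were at 0 in most libraries and at no more than 0.918 TPM. The range of *Mylpf* overlaps that of *Cox7a1*. All 8 mural cell markers were present, from *Myh11* at 0.597 to 1.35 TPM to *Rgs5* at 44.5 to 61.9 TPM and *Vtn*, which photoreceptors also express, at 1065 to 1283 TPM. The part of other cells in these levels was not tested. *Cox8b* reached 4.45 TPM in Cre/Cre replicate 1 and was at or below 1.40 TPM in the other libraries. *Cox7a2l*, a supercomplex factor related to subunit 7a, had a mean of 244 TPM with a CV of 5.03%.

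In ATP synthase, the alpha and beta subunits form the catalytic head around the gamma shaft. *Atp5b* was at 1495, 1611 and 1519.7 TPM in +/+, 1486, 1486 and 1444 in Cre/+ and 1287, 1542 and 1465 in Cre/Cre. *Atp5a1*, alpha, had a mean of 619 TPM and *Atp5c1*, gamma, 301 TPM. Alpha and beta are present in equal number in the enzyme, but beta held 61.1% to 62.8% of the summed TPM of the 3 subunits and alpha 25.3% to 26.7%. The c ring is encoded by 3 genes whose mature proteins are the same. Of their sum, *Atp5g3* held 60.0% on average, *Atp5g2* 24.4% and *Atp5g1*, the lowest gene of the enzyme at 133 TPM, 15.6%.

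Across libraries, most of these genes moved together. For this description each library was divided by its median ratio to the 9-library geometric means, which takes out the loss of TPM to Rn45s. The median of the 91 genes tested then deviated from the 9-library mean by 0.15 (log2) in +/+ replicate 2, with 85 of 91 genes above their mean, and by -0.12 in Cre/Cre replicate 3, with 12 above. Of the 91 genes, 44 had their highest value in +/+ replicate 2, where 12.6% of all genes tested had theirs, and 34 had their lowest in Cre/Cre replicate 3, where 10.6% of all genes had theirs. Another 24 were lowest in Cre/+ replicate 3. The remaining 6 libraries had medians from -0.03 to 0.05. The 2 libraries with the lowest medians, Cre/+ replicate 3 (-0.08) and Cre/Cre replicate 3, were 2 of the 3 with *Xist* near 0, and the third, Cre/Cre replicate 1, had a median of 0.002. Complex II moved least, between -0.05 and 0.05, and complex IV most, between -0.19 and 0.17.

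**Figure D2:**
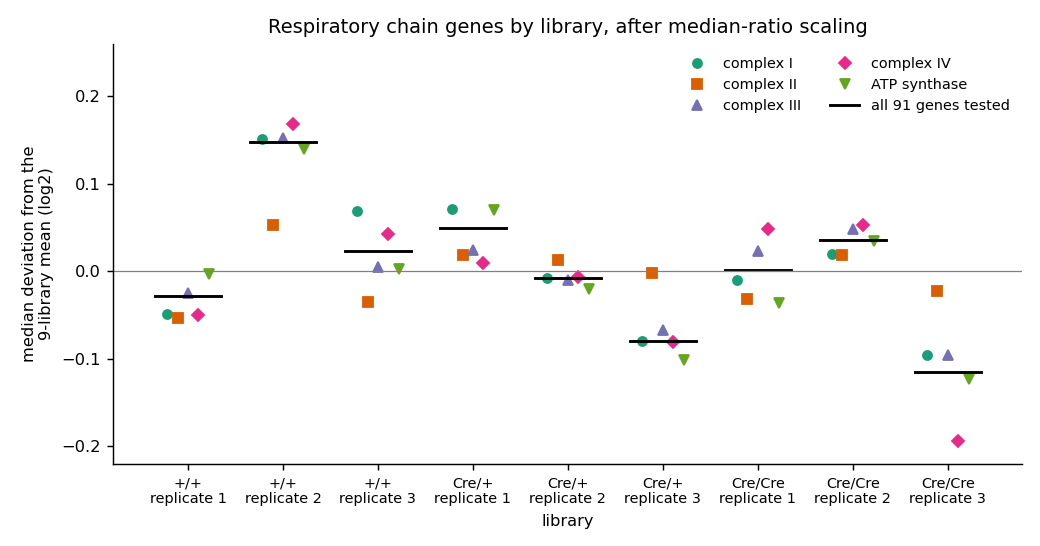
Median log2 deviation of the genes of each complex from their 9-library mean (symbols), by library, after median-ratio scaling; black bars give the median of all 91 genes tested. In +/+ replicate 2 all complexes but II lie between 0.14 and 0.17, and in Cre/Cre replicate 3 all but II lie between -0.19 and -0.10.

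By annotation these genes have short transcripts, with a median of 659 bases against 2095 for all genes tested. In the same libraries short genes deviated in the same direction. The length of a gene is here the median over its annotated protein-coding transcripts, or over all its transcripts where none is protein-coding. The transcripts so counted need not be those expressed in retina. This median puts *Ndufs1* at 651 bases and *Atp5g1* at 2675.5, so the division into short and long genes is rough. Across the 91 genes, Spearman's rank correlation between transcript length and deviation was -0.34 in +/+ replicate 2, 0.32 in Cre/+ replicate 3 and 0.40 in Cre/Cre replicate 3. Across the 14864 genes tested with a known length it was -0.21, 0.18 and 0.14. Genes of a library share its depth and RNA, so these are descriptions. The 67 respiratory chain genes with transcripts under 1000 bases had a median deviation of 0.17 in +/+ replicate 2 and -0.17 in Cre/Cre replicate 3. The 24 longer ones had 0.07 and -0.06. The 2308 other genes under 1000 bases, taken only from those with a protein-coding transcript, had 0.05 and -0.03. The part of transcript length in the values by genotype was not tested.

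Cre/+ retinas had slightly lower levels than +/+ for most complexes, within the spread of the libraries, and no single gene passed the test. The summed TPM of the 96 genes was 18828, 20689 and 19549 in +/+, with a mean of 19689 ± 939 (SD, n = 3), and 19608, 18891 and 18230.1 in Cre/+, with 18910 ± 689 (SD, n = 3), or 96.0% of +/+. By complex the Cre/+ mean was 95.6% of +/+ for complex I, 101% for II, 97.1% for III, 94.8% for IV and 96.5% for ATP synthase. The ranges of the genotypes overlapped in each sum. Here and for Cre/Cre, the sums for complex I and for all 96 genes include *Ndufs5*. Its share of the TPM that it splits with *Ndufs5-ps* was 69.7% in +/+ replicate 2 and at most 31.9% elsewhere. With limma and Benjamini-Hochberg adjustment over all 15198 genes tested, 0 of the 91 genes reached an adjusted p of 0.05 or less, a limit that 0.00658% of all genes passed. The median log2 fold change of the 91 genes was -0.05, against 0.001 for all genes tested. Of the 91, 58 were below 0, as were 7533 of all 15198 genes tested. At an unadjusted p under 0.05, 15 genes were lower, or 16.5%, against 5.82% of all genes tested, and 2, *Ndufaf4* and *Atp5k*, were higher, against 4.9%. The values of the genotypes did not overlap, with Cre/+ lower, for 13 genes (10.3% of all genes tested) and, with Cre/+ higher, for 5 (11.9%). Those 5, named after their values were seen, were *Ndufaf4*, *Atp5k*, the core subunit *Ndufv2* (0.15), *Sdhb* (0.11) and *Uqcrc2* (0.06). The 95% confidence interval of the fold change stayed within 1.5-fold in either direction for 87 of the 91. The count of 17 at an unadjusted p under 0.05 was 9 without +/+ replicate 2 and 7 without Cre/+ replicate 3, and the median was -0.03 without either of these.

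**Figure D3:**
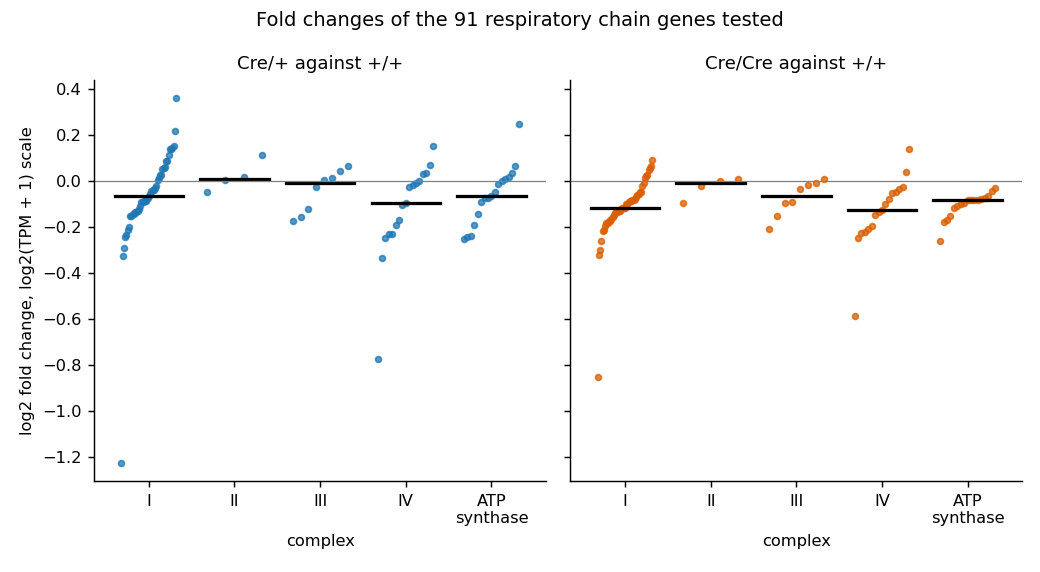
Log2 fold changes (log2(TPM + 1) scale) of the 91 genes tested, by complex, in Cre/+ (left) and Cre/Cre (right) against +/+; black bars are medians. Complex II lies around 0 in both, and the lowest points are *Ndufs5* (-1.23 and -0.85) and *Cox7c-ps1* (-0.78 and -0.59).

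The genes with the smallest p in Cre/+ come from different complexes and 1 of them had higher values than +/+. *Ndufaf3*, an assembly factor of complex I, was at 47.5, 43.1 and 46.8 TPM in +/+ and 35.8, 38.6 and 34.5 in Cre/+. These do not overlap, with a log2 fold change of -0.33 ± 0.09 (SE, limma, adjusted p = 0.351). *Ndufaf4*, also an assembly factor of complex I, was at 30.2, 30.8 and 28.6 TPM in +/+ and 35.2, 39.5 and 41.4 in Cre/+. Its log2 fold change was 0.36 ± 0.10 (SE, limma, adjusted p = 0.357). All 3 Cre/+ values are above all 3 +/+ values. *Cox6a1*, the ubiquitous form of subunit 6a, was at 211, 259 and 271 TPM in +/+ and 204, 187 and 192 in Cre/+, with a log2 fold change of -0.34 ± 0.10 (SE, limma, adjusted p = 0.377). +/+ replicate 1 lies nearer to the Cre/+ values than to its own group. *Atp5g2*, a c ring gene, was at 221, 231 and 232 TPM in +/+ and 190.5, 194 and 189 in Cre/+, with a log2 fold change of -0.25 ± 0.08 (SE, limma, adjusted p = 0.377). The fifth, *Cox7c-ps1*, is treated with the copies.

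Cre/Cre retinas had lower sums than +/+ in each complex, again with overlapping ranges, and no gene passed the test. The summed TPM was 17206, 19722 and 17785 in Cre/Cre, with a mean of 18238 ± 1318 (SD, n = 3), or 92.6% of +/+, and replicate 2 lay above 2 of the +/+ libraries. The Cre/Cre mean was 92.0% of +/+ for complex I, 97.7% for II, 94.9% for III, 90.6% for IV and 93.5% for ATP synthase. With limma and the same adjustment, 0 of the 91 genes reached an adjusted p of 0.05 or less (0.00658% of all genes tested). The median log2 fold change was -0.10, against -0.02 for all genes tested. Of the 91 genes, 79 were below 0, as were 8772 of all 15198 genes tested. The 79 include all 17 genes of ATP synthase and all 11 ubiquitous subunits of complex IV. After median-ratio scaling 73 of the 91, 17 of the 17 and 11 of the 11 were below 0, against 7447 of the 15198. Without Cre/Cre replicate 1, whose TPM Rn45s lowers, 71, 14 and 10 were, against 6656 of the 15198. At an unadjusted p under 0.05, 13 genes were lower (5.39% of all genes tested), 0 were higher (1.58%), and 6.97% of all genes passed in either direction. For 11 genes the genotypes did not overlap with Cre/Cre lower (8.05% of all genes tested), and for 0 with Cre/Cre higher (2.7%). The interval of the fold change stayed within 1.5-fold for 86 of the 91. Retinal markers had lower values in Cre/Cre as well: all 8 photoreceptor markers had a log2 fold change below 0, with a median of -0.07, and so had all 5 ganglion cell markers, *Rbpms* among them, with a median of -0.31 and summed levels of 1231 to 1258 TPM in +/+ and 902 to 1069.6 TPM in Cre/Cre. The photoreceptor count was 7 of 8 after median-ratio scaling and 5 of 8 without Cre/Cre replicate 1, with medians of -0.04 and -0.03, and the ganglion cell count was 5 of 5 in both, with medians of -0.28 and -0.24. Their part in the values of the respiratory chain genes was not tested. The median of the 91 genes depended on which libraries were compared: it was -0.02 with *Xist* as a covariate, 0.001 in the 6 libraries with *Xist* above 100 TPM, where Cre/Cre has only replicate 2, -0.04 without Cre/Cre replicate 1 and -0.15 without Cre/Cre replicate 2. The count of 13 was 2 with *Xist* as a covariate, 3 in those 6 libraries, 8 without Cre/Cre replicate 1, 8 without Cre/Cre replicate 3, 5 without +/+ replicate 2, 22 without +/+ replicate 1 and 25 without Cre/Cre replicate 2.

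*Ndufaf3* also had the smallest p in Cre/Cre, at 38.7, 37.6 and 33.1 TPM, below all +/+ values, with a log2 fold change of -0.32 ± 0.09 (SE, limma, adjusted p = 0.542). Both comparisons use the same +/+ libraries. *Cox4i1* was at 766, 860.3 and 797 TPM in +/+, 716, 700.2 and 650 in Cre/+ and 693, 718 and 629 in Cre/Cre, and the Cre/Cre log2 fold change was -0.25 ± 0.08 (SE, limma, adjusted p = 0.543). All 6 knock-in libraries lie below all 3 +/+ libraries. *Atp5g1*, a c ring gene, was at 134, 171 and 145 TPM in +/+, 132, 128 and 119 in Cre/+ and 118, 129 and 125 in Cre/Cre, and the Cre/Cre log2 fold change was -0.26 ± 0.09 (SE, limma, adjusted p = 0.601). +/+ replicate 2 stands above the other 8 libraries, and +/+ replicate 1 lies just above Cre/+ replicate 1. *Uqcrb*, a small subunit of complex III, was at 292, 301 and 269 TPM in +/+, 289.7, 283 and 273 in Cre/+ and 230.0, 264 and 251 in Cre/Cre, and the Cre/Cre log2 fold change was -0.21 ± 0.08 (SE, limma, adjusted p = 0.647). In Cre/+ it overlaps +/+, and its log2 fold change of -0.02 there turns to 0.01 without +/+ replicate 2. *Ndufaf4* was at 27.2, 32.1 and 36.9 TPM in Cre/Cre, on both sides of the +/+ values.

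**Figure D4:**
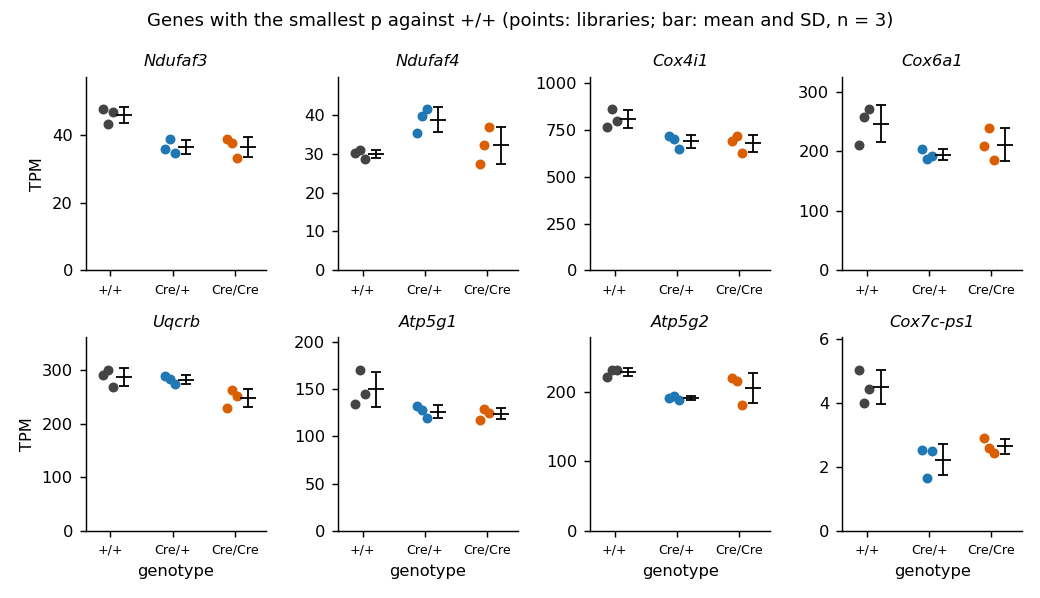
TPM of the 8 genes with the smallest p against +/+ in either comparison, in each library (points), with mean and SD (n = 3) per genotype; axes start at 0. Cre/+ values lie below +/+ for 6 of the 8 genes and above for *Ndufaf4*, while *Uqcrb* overlaps +/+ in Cre/+ and lies below it in Cre/Cre.

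Between the knock-in genotypes, 0 of the 91 genes reached an adjusted p of 0.05 or less with limma (0.0132% of all genes tested). At an unadjusted p under 0.05, 8 had lower values in Cre/Cre (4.2% of all genes tested) and 1, *Cox6b2*, had higher values (2.38%), or 9 in all, against 6.58%. The genotypes did not overlap for 9 genes with Cre/Cre lower, against 7.23% of all genes tested, and for 3 with Cre/Cre higher, against 4.76%. The median log2 fold change was -0.04, against -0.03 for all genes. The smallest p belonged to *Atp5k*, subunit e, which helps ATP synthase to form dimers and was picked here after its values were seen. It was at 282, 310.0 and 255 TPM in Cre/+ and 203, 251 and 215 in Cre/Cre, with +/+ at 245, 247 and 221. The knock-in genotypes do not overlap, and the +/+ values lie within the range of Cre/Cre and below all Cre/+ values. The log2 fold change of Cre/Cre against Cre/+ was -0.34 ± 0.09 (SE, limma, adjusted p = 0.518).

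The largest spread of any gene tested among the 91 was that of *Ndufs5*, an accessory subunit of complex I, with a CV of 69.5%. It was at 51.0, 166 and 72.9 TPM in +/+, 36.2, 38.1 and 33.5 in Cre/+ and 42.8, 44.1 and 54.1 in Cre/Cre, so that +/+ replicate 2 alone exceeds 100 TPM. The log2 fold change in Cre/+ was -1.23 ± 0.41 (SE, limma, adjusted p = 0.409). The name *Ndufs5-ps*, which the rule leaves out, has a row at chr4:123712710-123718161 that covers 99.5% of the span of *Ndufs5* on the same strand, besides one on chromosome 16. In +/+ replicate 2 this row held 58.2 TPM and in the other 8 libraries 135 to 203 TPM. Summed over both names, the libraries held 220.4, 238 and 229 TPM in +/+, 247, 182 and 184 in Cre/+ and 196, 229 and 226 in Cre/Cre, and the CV was 10.9%. The log2 fold change of the sum was -0.18 ± 0.11 in Cre/+ (SE, limma, adjusted p = 0.546) and -0.08 ± 0.11 in Cre/Cre (SE, limma, adjusted p = 0.942). *Ndufs5* held 69.7% of the sum in +/+ replicate 2 and 14.6% to 31.9% in the others.

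**Figure D5:**
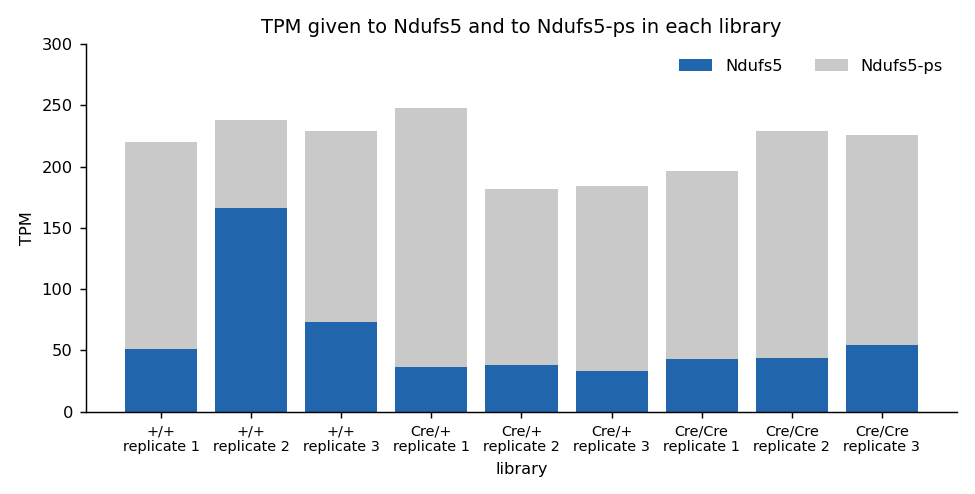
TPM given to *Ndufs5* (blue) and to *Ndufs5-ps* (grey), stacked, in each of the 9 libraries. The total lies between 182 and 247 TPM throughout, while the blue share is 69.7% in +/+ replicate 2 and at most 31.9% elsewhere.

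A pair of near-identical copies also fall under the rule and are uncertain for that reason. *Cox7c-ps1*, a pseudogene of *Cox7c* that lies inside *Rab40c* on the same strand, matches *Cox7c* at 313 of 315 aligned bases. It was at 5.04, 3.98 and 4.44 TPM in +/+, 2.53, 1.65 and 2.48 in Cre/+ and 2.90, 2.59 and 2.44 in Cre/Cre, so all 6 knock-in values are below all +/+ values. Its log2 fold change was -0.78 ± 0.18 in Cre/+ (SE, limma, adjusted p = 0.309) and -0.59 ± 0.18 in Cre/Cre (SE, limma, adjusted p = 0.543). *Cox7c* itself, at 289.9 to 398 TPM, had about 104 times its mean level, and its log2 fold changes were 0.15 and -0.03. *Ndufb4c* matches *Ndufb4* at 390 of 390 bases and was at 17.7 to 24.9 TPM in +/+, 23.2 to 27.7 in Cre/+ and 15.5 to 20.7 in Cre/Cre.

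Among the 91 genes tested, 3 lie on the X chromosome, and their CVs were near the median of the 91, 8.52%. *Ndufb11*, an accessory subunit of complex I, was at 158 to 208 TPM, *Ndufa1*, another, at 106 to 136 TPM, and *Cox7b* of complex IV at 109 to 134 TPM, with CVs of 8.48%, 8.86% and 6.78%. In the 3 libraries with *Xist* near 0, *Cox7b* was at 124, 109.6 and 109 TPM, and the other 6 ranged from 123 to 134 TPM. *Ndufa1* was at 107, 106 and 119.5 TPM in these 3, overlapping the other 6, at 113 to 136 TPM. For both genes the second of the 3 values is from Cre/Cre replicate 1, whose TPM Rn45s lowers. The other genes of high CV were the lowly expressed *Cox7c-ps1* (35.6%), *Cox7a1* (29.6%), *Ndufa4l2* (22.8%) and *Ndufb4c* (19.0%). Among the 68 genes with at least 100 TPM, the median CV was 8.03%, against 7.37% for all 2091 genes at that level.

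Of the genes that work beside the respiratory chain, 0 passed the test in limma in any comparison. Of 9 electron carriers and feeders, among them cytochrome c1 (*Cyc1*) and cytochrome c (*Cycs*), the median log2 fold change was -0.06 in Cre/+ and -0.06 in Cre/Cre. *Cyc1*, the cytochrome of complex III, which its name keeps outside the rule, was at 147, 180 and 169 TPM in +/+, 145, 150 and 147 in Cre/+ and 164, 155 and 154 in Cre/Cre. It was highest in +/+ replicate 2, and Cre/+ lay at the low end of the range. For 39 assembly factors outside the rule the medians were -0.003 and -0.03, with 1 higher and 3 lower at an unadjusted p under 0.05 in Cre/+ (4.9% and 5.82% of all genes tested) and 0 and 2 in Cre/Cre (1.58% and 5.39%). The highest value was 0.47 ± 0.39 (SE) for *Sco2*, a copper chaperone of complex IV, in Cre/Cre, with overlapping genotypes. *Sco2* lay near the limit for testing, at 1.44, 0.138 and 3.06 TPM in +/+ and 3.19, 1.44 and 1.94 in Cre/Cre. For 14 citric acid cycle genes the medians were -0.03 and -0.05, with 0 higher and 2 lower at an unadjusted p under 0.05 in Cre/+, beside the same 4.9% and 5.82% of all genes, and 0 of either in Cre/Cre. The 13 mitochondrially encoded subunits were looked up under their mt- names. Of these, 0 were among the gene names listed, so they were not analysed here.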

How the data were processed

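Whole-retina RNA from 9 mice was sequenced as paired reads of a strand-specific library. The authors trimmed reads with Trimmomatic, checked them with FastQC, aligned them to mm10 with HISAT2 and SAMtools and assembled and quantified genes with StringTie; versions, annotation and strand setting are not given in the sources used here. The deposited tables hold, per gene and library, TPM, FPKM and coverage. TPM were used here, summed over rows of 1 gene name. Deposited FPKM served as an alternative, and the ratio of deposited coverage to FPKM gave the aligned bases of each library. The tables hold no read counts, so counting error could not be computed and the DESeq2 test that the authors ran on counts was not repeated.

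Genes with a mean of at least 1 TPM over the 9 libraries were tested on log2(TPM + 1) with limma 3.58.1 in R 4.3.3, in 1 model of the 3 genotypes with 6 residual degrees of freedom, a trended and robust prior, and Benjamini-Hochberg adjustment over all 15198 genes. Fold changes are on this scale, which understates those of low genes. Each library is 1 mouse, so replicates are animals. Genes were named where they had 1 of the 5 smallest p among the respiratory chain genes against +/+ or 1 of the 5 largest CVs, held the highest or lowest level of a complex, were catalytic core subunits or members of an isoform family, lay on the X chromosome or fell below the TPM limit; others are marked as named after their values were seen. The members and lists were chosen with earlier results of these data known. Over all genes tested, deviations of same-numbered libraries had correlations of -0.12 to 0.13, and over the respiratory chain genes of -0.46 to 0.23. With 3 libraries per genotype these cannot settle whether the numbers mark pairs, and the main fit used no block. The fit was tested on simulated data. Transcript lengths were medians over the protein-coding transcripts of each gene in GENCODE M21, and promoters came from RefSeq. Tables and figures were made with Python 3.11.15, pandas 2.3.3, matplotlib 3.10.9 and Biopython 1.88. Values of some single genes are not reported here.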

Additional observations from a re-analysis of the deposited data

How the results depend on the processing

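No respiratory chain gene passed the adjusted limit in limma under any alternative run. The count at an unadjusted p under 0.05 in Cre/Cre, 13, was 2 with *Xist* as a covariate, 8 with Rn45s removed and TPM rescaled, 3 in the 6 libraries with *Xist* above 100 TPM (chosen after seeing the data; the lone Cre/Cre library was assumed to vary like the other groups), and 5 to 25 with a library left out. In Cre/+, 17, it was 7 to 21 with a library left out. The median log2 fold change in Cre/Cre, -0.10, was -0.0214 with *Xist* as a covariate, 0.00113 in those 6 libraries and -0.15 to -0.04 with a library left out. In Cre/+, -0.05, it was -0.07 to -0.03 with a library left out. The log2 fold change of *Uqcrb* in Cre/+, -0.02, turned to 0.00827 with *Xist* as a covariate and ranged from -0.0719 to 0.00974 with a library left out, being above 0 without +/+ replicate 2. That of *Ndufaf4* in Cre/Cre, 0.09, ranged from -0.0141 to 0.198, being below 0 without Cre/Cre replicate 3. With FPKM, complex II was 98.8% of +/+ in Cre/+ and 94.5% in Cre/Cre, and complex III 91.7% in Cre/Cre; with median-ratio scaling, complex II was 99.5% in Cre/Cre. The cause of these shifts was not tested. With the replicate number as a block, 16 genes in Cre/+ and 12 in Cre/Cre had an unadjusted p under 0.05 and 0 passed the adjusted limit, so the block changed no call. DESeq2, other size factors and a count filter were not run, because the tables used here hold no counts. The counts below 0 after scaling and without Cre/Cre replicate 1 were added after seeing the data.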

Other observations

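Beyond the respiratory chain, 16 regulators of mitochondrial biogenesis were measured. *Ppargc1a*, the coactivator PGC-1 alpha, was at 29.1 to 35.6 TPM, *Nrf1* at 34.2 to 47.5, *Gabpa* at 36.5 to 45.9, *Yy1* at 46.3 to 57.4 and *Tfam*, which packages mitochondrial DNA, at 17.0 to 20.1 TPM. In limma 0 of the 16 passed the adjusted limit in either comparison with +/+, and at an unadjusted p under 0.05, 1 was higher and 3 were lower in Cre/+ (4.9% and 5.82% of all genes tested), and 0 were higher or lower in Cre/Cre (1.58% and 5.39%). *Gabpa* had the highest log2 fold change in Cre/+, 0.19 ± 0.08 (SE, limma, adjusted p = 0.422), and its Cre/+ values of 41.1, 42.1 and 45.9 TPM lie above the +/+ values of 38.7, 36.5 and 37.3 TPM. *Pprc1*, a relative of PGC-1 alpha, had the lowest, -0.29 ± 0.12 (SE, limma, adjusted p = 0.417), with overlapping genotypes.

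The 6 carriers and pores of the mitochondrial membranes were highly expressed. *Slc25a4*, which exchanges ADP for ATP, was at 898, 1017 and 932 TPM in +/+, 885, 897 and 886 in Cre/+ and 789, 906 and 862 in Cre/Cre. *Vdac1*, the outer membrane pore, was at 606 to 721 TPM. The log2 fold changes of all 6 were below 0 in Cre/Cre, with a median of -0.08, but 4 of 6 were after median-ratio scaling and 4 of 6 without Cre/Cre replicate 1, which is rich in Rn45s. At the deposited scale 0 had an unadjusted p under 0.05.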
